A study of Mus musculus with 30 samples.

Results

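The 9 genes described here are transcription factors of the epiblast and of the germ layers that form from it, listed in the deposited table as OTX2, POU3F1, ZIC2, SOX1, PAX6, PAX3, T, MIXL1 and LEF1. They were listed by name, a choice made with earlier results of these data known, and they are 9 of the 20541 genes in the table. The assay was TT-seq: cells are fed 4-thiouridine briefly, and only the RNA made in that window is purified and sequenced, so values stand for nascent transcription. The cells were dTKO mouse embryonic stem cells, a single line labelled Suv39h1fl/fl; Suv39h2-/-; Setdb1fl/fl, kept in LIF and serum on gelatin. Every library, the 0 h baseline included, came from this line and carries the label of auxin (100 µg/ml) plus dTAG13 (0.5 µM), compounds that trigger breakdown of proteins fitted with degron tags. Cells were collected 0, 3, 12, 24 and 48 h after the compounds were added, with 3 biological repeats at each time, and no culture at 3 to 48 h without the compounds was analysed here. The study asks what happens to transcription when methyltransferases of histone H3K9 are lost, with 0 h as its baseline, so time in culture and the compounds cannot be told apart from that loss.

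Embryonic stem cells held with LIF resemble the naive epiblast, and on leaving that state they pass through a formative state before they turn towards a germ layer. Otx2 and Pou3f1 mark that exit, Zic2, Sox1, Pax6 and Pax3 belong to the neural plate and its borders, and T and Mixl1 mark the primitive streak, from which mesoderm and endoderm arise. Lef1 carries the signal of the WNT pathway to DNA by binding β-catenin, and T is a classical target of that pathway. In embryonic stem cells several of these genes carry Polycomb marks until differentiation.

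All 9 genes are annotated as protein-coding in GENCODE M21 on GRCm38, the build used for the deposit. TT-seq reads can fall in introns as well as exons, but Pou3f1 and Sox1 have 1 exon each and no intron. The transcription units ran from 3.009 kb (Pou3f1, with 1 exon) to 114.06 kb (Lef1, with 12 exons, 3.08% of the gene being exonic). Otx2 lies at chr14:48657677-48667644 on the minus strand, Pou3f1 at chr4:124657646-124660655 on the plus strand and Zic2 at chr14:122475384-122480328 on the plus strand. Sox1 lies at chr8:12395519-12399555 and Pax6 at chr2:105668896-105698410, both on the plus strand, and Pax3 at chr1:78101267-78197136 on the minus strand. T lies at chr17:8434423-8442496 on the plus strand, Mixl1 at chr1:180693048-180697034 on the minus strand and Lef1 at chr3:131110297-131224357 on the plus strand. The unit used for Otx2 begins at an inner start: GENCODE extends the gene to base 48673819, so reads from its upstream exon lie outside the unit. GENCODE also starts Pou3f1 (base 124656807) and Sox1 (base 12395295) before the units used, so their first bases lie outside too. Sox1 lies wholly inside the unit of the non-coding gene GM5607 on the same strand, so reads of the pair cannot be told apart, and Pax6 overlaps Elp4 and Pax6os1 on the opposite strand. The sources used here give no strand setting for the counting, so reads of opposite partners may be mixed too.

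Promoter windows from RefSeq on GRCm38.p6 were matched for 5 of the 9 genes (Otx2, Pax6, Sox1, T and Lef1), each with its start at the first base of the deposited unit. The 4 shown here are those of an epiblast gene, a WNT effector, a neural gene and a streak gene that fell at 3 h on the deposited scaling. Each is given 5′ to 3′ on the gene's strand, from 250 bases before the start to 30 transcribed bases, with the first transcribed base and any matched motif in capitals. Otx2 is at chr14:48667615-48667894 (minus), Lef1 at chr3:131110047-131110326 (plus), Sox1 at chr8:12395269-12395548 (plus) and T at chr17:8434173-8434452 (plus). By GENCODE the Otx2 window lies inside the gene, and most of the Sox1 window is transcribed, with a start at base 12395295.
Otx2: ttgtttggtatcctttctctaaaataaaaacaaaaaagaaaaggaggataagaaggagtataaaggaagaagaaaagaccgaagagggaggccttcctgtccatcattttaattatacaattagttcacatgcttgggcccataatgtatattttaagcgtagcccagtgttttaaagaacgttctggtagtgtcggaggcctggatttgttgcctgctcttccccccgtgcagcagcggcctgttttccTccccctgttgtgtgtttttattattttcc
Lef1: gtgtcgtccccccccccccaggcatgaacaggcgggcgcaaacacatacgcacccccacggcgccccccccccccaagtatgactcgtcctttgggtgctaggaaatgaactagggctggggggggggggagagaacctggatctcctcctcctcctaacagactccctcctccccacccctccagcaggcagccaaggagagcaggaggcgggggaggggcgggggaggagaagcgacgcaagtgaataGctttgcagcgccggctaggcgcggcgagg
Sox1: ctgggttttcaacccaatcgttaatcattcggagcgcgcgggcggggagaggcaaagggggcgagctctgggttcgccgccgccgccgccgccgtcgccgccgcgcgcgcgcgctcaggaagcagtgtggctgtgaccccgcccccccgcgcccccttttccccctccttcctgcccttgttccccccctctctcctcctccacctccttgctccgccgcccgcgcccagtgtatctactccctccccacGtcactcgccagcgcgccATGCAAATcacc
T: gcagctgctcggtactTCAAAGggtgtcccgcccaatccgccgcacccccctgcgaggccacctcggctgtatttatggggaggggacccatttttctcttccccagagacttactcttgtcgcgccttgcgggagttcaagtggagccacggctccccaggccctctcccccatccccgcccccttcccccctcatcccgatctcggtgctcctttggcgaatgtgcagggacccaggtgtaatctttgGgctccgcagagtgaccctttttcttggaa
The 4 windows are unlike in base composition. The full window of 300 bases holds 6 CpG dinucleotides at Otx2, 17 at T, 18 at Lef1 and 37 at Sox1, against a median of 7 over 32851 RefSeq windows. Fewer CpGs were found in 94.4% of all windows than at Sox1, and in 43.6% than at Otx2. Both strands were searched for CTTTGA and CTTTGT (bound by TCF and LEF proteins), CATTGT (SOX proteins), the octamer ATGCAAAT (POU proteins), GGATTA (bicoid-type homeodomains such as that of Otx2) and GGTGTGA (T-box proteins). Sox1 holds the octamer with its first letter at base 19, the start itself being the first base counted, and 1.74% of all windows hold that motif. T holds CTTTGA on its minus strand, printed as TCAAAG, 234 bases before the start, and 16.0% of all windows hold that motif. No match to these letters lies in the windows of Otx2, Pax6 or Lef1. The remaining motifs occur in 18.7% (CTTTGT), 12.6% (CATTGT), 7.06% (GGATTA) and 3.98% (GGTGTGA) of all windows.

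The 15 libraries held 37.1 to 42.3 M (mega) reads over all units, and 16.4 to 22.9 M over genes once the ribosomal precursor Rn45s was left out. Values are reads divided by the deposited size factor of the library, called scaled reads, and every mean is given with its SD over 3 libraries (n = 3). Fold changes are limma estimates on log2(scaled reads + 1) with their standard errors (SE), and a gene is said to have risen or fallen where the Benjamini-Hochberg adjusted p over all 15261 tested genes is under 0.05. On the deposited scaling the median of all tested genes moved in log2 by -0.24, 0.18, -0.08 and -0.37 at the 4 later times in turn. For that reason the members' changes are also given after rescaling, as are other changes that it moved far or whose call it ended. Rescaling divides each library by its median ratio over tested genes without Rn45s and so brings these medians to between -0.01 and 0.00. The rescaling factors ran from 0.797 to 1.37. Repeat 2 had the highest factor at 12 h and at 24 h, and most members had their highest deposited value of those times in it. Transcription of the targeted genes gives no check of the treatment, since the compounds act on protein. Over all libraries Setdb1 had 689.8 to 1201 scaled reads and Suv39h1 402 to 683. Suv39h2, which the label gives as -/- at every time, 0 h included, had 749.6 to 1354. What its reads come from was not tested. Libraries are bulk, so a change in the share of cells that transcribe a gene and a change per cell cannot be told apart.

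Otx2, the homeodomain factor that drives exit from the naive state and later forms the forebrain, fell at 3 h and then rose above its starting level. Its scaled reads were 282, 290.3 and 279 at 0 h and 141, 153 and 179.9 at 3 h. They were 222, 296 and 285 at 12 h, then 387, 473 and 355 at 24 h, and finally 485, 511 and 464 at 48 h. All 3 libraries at 3 h lay below all libraries at 0 h, those at 12 h overlapped the baseline, and those at 24 h and 48 h lay above it. The mean went from 284 ± 5.65 to 158 ± 19.9 at 3 h and to 487 ± 23.4 at 48 h. At 3 h the log2 change was -0.85 (SE 0.13, limma adjusted p = 1.3e-07), at 24 h 0.50 (SE 0.13, adjusted p = 0.0017) and at 48 h 0.77 (SE 0.13, adjusted p = 5.1e-08). After rescaling these became -0.61, 0.58 and 1.14, all past the limma threshold. Between neighbouring times Otx2 rose by 0.75 from 3 to 12 h and by 0.60 from 12 to 24 h, and the change from 24 to 48 h was 0.27 (limma adjusted p = 0.078). After rescaling it rose over each of these intervals, by 0.34, 0.85 and 0.56. At 12 h the change against 0 h was -0.10 (limma adjusted p = 0.61) as deposited and -0.28 (adjusted p = 0.0019) after rescaling.

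Pou3f1, a POU-domain factor of the formative epiblast and early neural cells, fell at 3 h on the deposited scaling and overlapped its baseline at 24 h and 48 h. Scaled reads were 128, 147 and 158 at 0 h, then 97.9, 98.0 and 108 at 3 h and, next, 112, 125 and 109.7 at 12 h. At 24 h they were 133, 196 and 122, and at 48 h 144, 164 and 148. The libraries at 3 h and at 12 h lay below all of those at 0 h, while those at 24 h and 48 h overlapped them. At 3 h the change was -0.50 (SE 0.15, limma adjusted p = 0.011), and after rescaling it was -0.27 (adjusted p = 0.072). That call also ended when single libraries were left out, with a limma adjusted p of 0.083 without 0 h repeat 2, 0.083 without 0 h repeat 3, 0.063 without 3 h repeat 1 and 0.078 without 3 h repeat 2. At 48 h the change was 0.08 (limma adjusted p = 0.63) as deposited and 0.44 (adjusted p = 0.00027) after rescaling, where the gene also fell by 0.49 at 12 h and rose by 0.60 from 12 to 24 h and by 0.33 from 24 to 48 h.

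**Figure D1:**
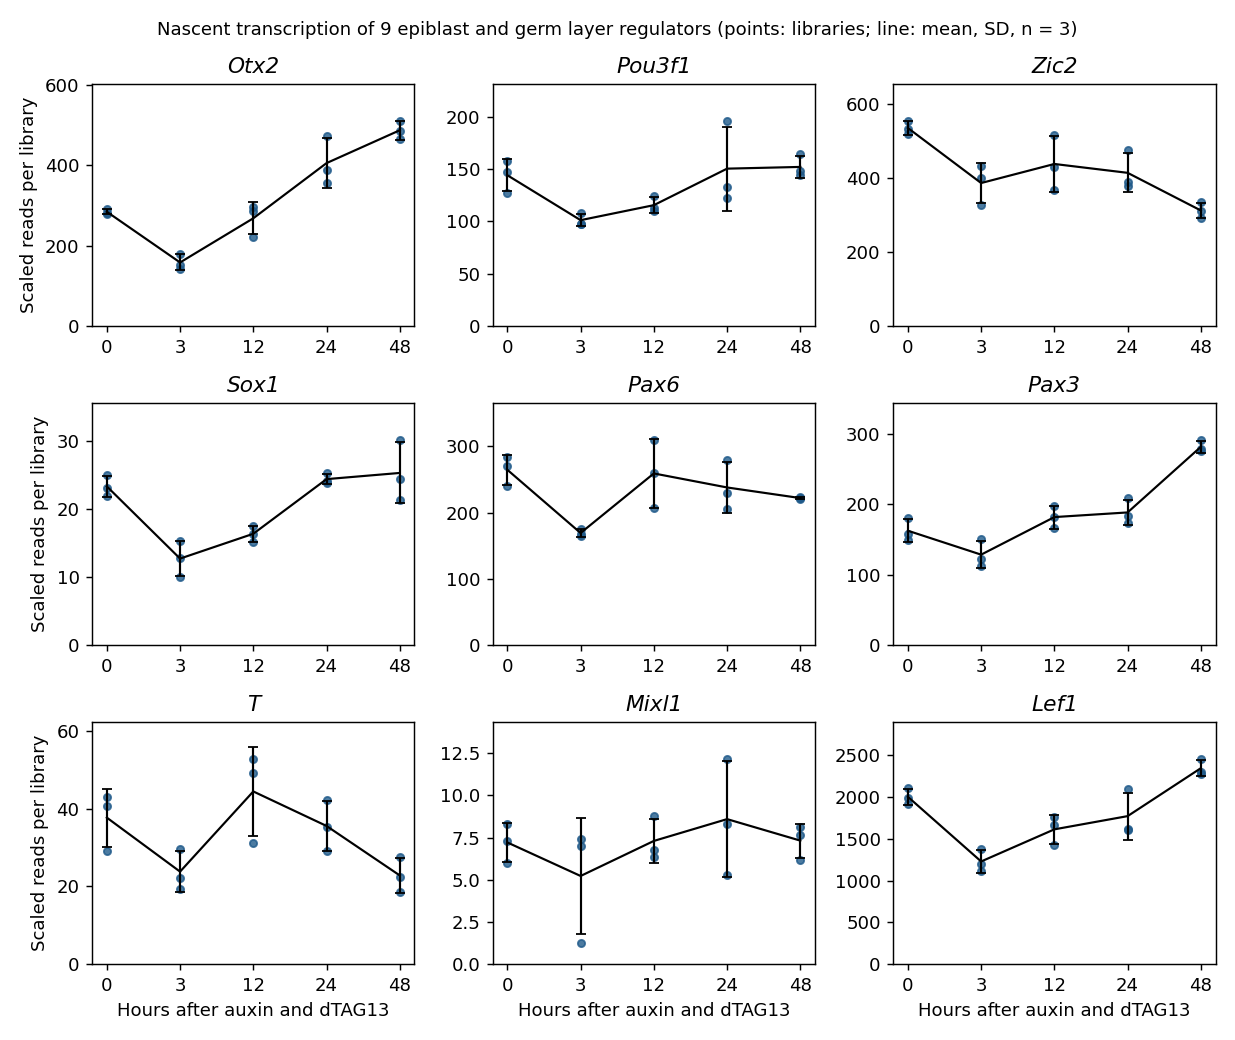
Scaled reads (vertical axis of each panel, from 0) of the 9 genes at the 5 times (horizontal axis, evenly spaced times in hours), with points for libraries and a line through the means with SD (n = 3). The means of all 9 genes drop at 3 h and are higher again at 12 h, Pax3 is highest at 48 h, and Zic2 is lowest at 48 h.

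Zic2, a zinc-finger factor of the neural plate that also binds enhancers in embryonic stem cells, fell at 3, 24 and 48 h. Its values were 518, 532 and 555 at 0 h, then 398, 327 and 433 at 3 h and, next, 368, 517 and 428 at 12 h. They were 378, 474 and 388 at 24 h and 292, 334 and 309 at 48 h. Every later library lay below all 3 libraries at 0 h, and the mean went from 535 ± 18.6 to 312 ± 20.8 at 48 h. The change was -0.48 (SE 0.13, limma adjusted p = 0.006) at 3 h, -0.38 (SE 0.13, adjusted p = 0.023) at 24 h and -0.78 (SE 0.13, adjusted p = 2.3e-08) at 48 h. After rescaling Zic2 fell at all 4 times, by 0.24, 0.48, 0.30 and 0.41 on the log2 scale. Leaving out 3 h repeat 2 raised the 3 h limma adjusted p to 0.15. At 24 h the call ended without any one of 5 libraries (0 h repeats 1, 2 and 3 and 24 h repeats 1 and 3), with limma adjusted p-values of 0.053, 0.07, 0.11, 0.15 and 0.12. From 24 to 48 h Zic2 fell by 0.40 (limma adjusted p = 0.0092), but not after rescaling (-0.12, adjusted p = 0.11), nor without 24 h repeat 2 (adjusted p = 0.069) or 48 h repeat 1 (adjusted p = 0.068).

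Sox1, the SOX factor that marks the first neural cells, had few reads at every time. It had 21.9, 25.0 and 23.1 scaled reads at 0 h, then 12.8, 15.3 and 10.1 at 3 h and, next, 15.2, 16.4 and 17.5 at 12 h. At 24 h it had 24.1, 25.3 and 23.9, and at 48 h 24.4, 30.2 and 21.4. The libraries at 3 h and 12 h lay below all of those at 0 h, and the later ones overlapped them. Behind the 3 h values stand 19, 24 and 13 reads, so counting error alone is large. The 3 h change was -0.84 (SE 0.25, limma adjusted p = 0.014), and it was -0.62 (adjusted p = 0.051) after rescaling. Without 0 h repeat 2 the limma adjusted p was 0.098, and without 3 h repeat 3 it was 0.056. After rescaling Sox1 fell at 12 h by 0.65 (limma adjusted p = 0.018) and rose by 0.79 from 12 to 24 h. At 48 h the change was 0.10 as deposited and 0.45 (limma adjusted p = 0.069) after rescaling. The host unit GM5607 went from 71.0 ± 6.79 to 48.3 ± 2.82 scaled reads at 3 h, a change of -0.55 (limma adjusted p = 0.025) that was -0.31 (adjusted p = 0.14) after rescaling, and to 63.3 ± 5.59 at 48 h.

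Pax6, the paired-box factor of the eye and forebrain, fell at 3 h and overlapped its baseline again at 12 h and 24 h. It had 239.8, 284 and 271 scaled reads at 0 h, then 165, 168 and 175 at 3 h and, next, 207, 310.2 and 261 at 12 h. At 24 h it had 229, 279.7 and 205, and at 48 h 221, 222 and 223. Only the libraries at 3 h and at 48 h lay wholly below those at 0 h. At 3 h the change was -0.64 (SE 0.14, limma adjusted p = 0.00026), and -0.40 (adjusted p = 0.00017) after rescaling. Pax6 then rose by 0.59 from 3 to 12 h (limma adjusted p = 0.00011), which after rescaling was 0.18 (adjusted p = 0.083). The sign at 48 h turned with the scaling, from -0.25 (limma adjusted p = 0.093) to 0.11 (adjusted p = 0.19), and neither passed the test. After rescaling Pax6 also fell by 0.23 at 12 h (limma adjusted p = 0.018) and rose by 0.20 from 24 to 48 h (adjusted p = 0.034). Elp4, which overlaps it on the opposite strand, had 2238 ± 113 scaled reads at 0 h and 1916 ± 160 at 3 h, and its 3 h change was -0.23 (limma adjusted p = 0.15) as deposited and 0.01 after rescaling. Pax6os1 had 15.3 ± 0.633 at 0 h and 12.1 ± 1.66 at 3 h, with no call at any time.

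Pax3, the paired-box factor of the dorsal neural tube, neural crest and somites, was the one tested gene of the 8 with no call at 3 h under either scaling, and it rose late. Its scaled reads were 149, 158 and 181 at 0 h, then 151, 113 and 123 at 3 h and, next, 182, 198 and 166 at 12 h. They were 184, 209 and 173 at 24 h and 275, 278 and 292 at 48 h, where all 3 libraries lay above every library of the other times. The mean went from 163 ± 16.5 at 0 h to 282 ± 8.82 at 48 h. At 48 h the change was 0.79 (SE 0.14, limma adjusted p = 1.1e-07), or 1.16 (adjusted p = 4.3e-12) after rescaling. From 24 to 48 h alone Pax3 rose by 0.58 (limma adjusted p = 0.00046), or 0.87 after rescaling. At 24 h its change against 0 h was 0.21 (limma adjusted p = 0.33) and 0.29 (adjusted p = 0.014) after rescaling, and at 3 h it was -0.34 (adjusted p = 0.073) and -0.11.

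T, the T-box factor Brachyury of the primitive streak, had 43.1, 40.8 and 29.1 scaled reads at 0 h, then 29.7, 22.3 and 19.4 at 3 h and, next, 31.3, 52.8 and 49.1 at 12 h. At 24 h it had 29.1, 42.1 and 35.4, and at 48 h 18.5, 22.5 and 27.5. The 3 libraries at 48 h lay below all of those at 0 h, and at the other times the groups overlapped. T fell at 3 h by 0.64 on the log2 scale (SE 0.21, limma adjusted p = 0.029), rose by 0.86 from 3 to 12 h (adjusted p = 0.000345) and fell by 0.62 from 24 to 48 h (adjusted p = 0.015). Against 0 h its 48 h change was -0.70 (SE 0.21, limma adjusted p = 0.0027). None of these 4 calls remained after rescaling, where the changes were -0.41 (limma adjusted p = 0.18), 0.45 (adjusted p = 0.097), -0.35 (adjusted p = 0.16) and -0.35 (adjusted p = 0.13). The 3 h call also ended without 0 h repeat 1 (limma adjusted p = 0.12), 0 h repeat 2 (0.17), 3 h repeat 2 (0.14) or 3 h repeat 3 (0.083). The fall from 24 to 48 h ended without 24 h repeat 2 (limma adjusted p = 0.11) or 48 h repeat 1 (0.12).

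Mixl1, a homeobox factor of the streak that steers cells to mesoderm and endoderm, was close to the limit of what these libraries resolve. It had 7.32, 8.32 and 6.0 scaled reads at 0 h, then 7.43, 1.27 and 6.98 at 3 h and, next, 6.76, 6.37 and 8.77 at 12 h. At 24 h it had 8.31, 12.2 and 5.31, and at 48 h 8.12, 6.20 and 7.64. These values rest on 2 to 13 reads a library, all later groups overlapped the baseline, and the mean of the gene was under the minimum of 10 scaled reads set for testing. Mixl1 was therefore not tested, and at this depth a modest change could not be told from counting error.

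Lef1, the DNA-binding partner of β-catenin, fell at 3 h and rose between 24 and 48 h. It had 1910.3, 2104 and 1987 scaled reads at 0 h, then 1195, 1114 and 1376 at 3 h and, next, 1421, 1757 and 1658 at 12 h. At 24 h it had 1600.2, 2095 and 1615, and at 48 h 2272, 2302 and 2454. All libraries at 3 h and 12 h lay below those at 0 h, those at 24 h overlapped them, and those at 48 h lay above them. At 3 h the change was -0.71 (SE 0.12, limma adjusted p = 5.1e-06) and -0.47 (adjusted p = 3.3e-11) after rescaling. At 48 h it was 0.23 (SE 0.12, limma adjusted p = 0.092) as deposited and 0.59 (SE 0.04, adjusted p = 2.1e-15) after rescaling, so the call at 48 h rests on the scaling. The rise from 24 to 48 h held under both, at 0.42 (limma adjusted p = 0.0048) and 0.70 (adjusted p = 4.5e-16). From 3 to 12 h Lef1 rose by 0.39 as deposited (limma adjusted p = 0.0036) and had a change of -0.03 after rescaling, and at 12 h its change against 0 h was -0.32 (adjusted p = 0.063) and -0.50 (adjusted p = 7.6e-13).

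**Figure D2:**
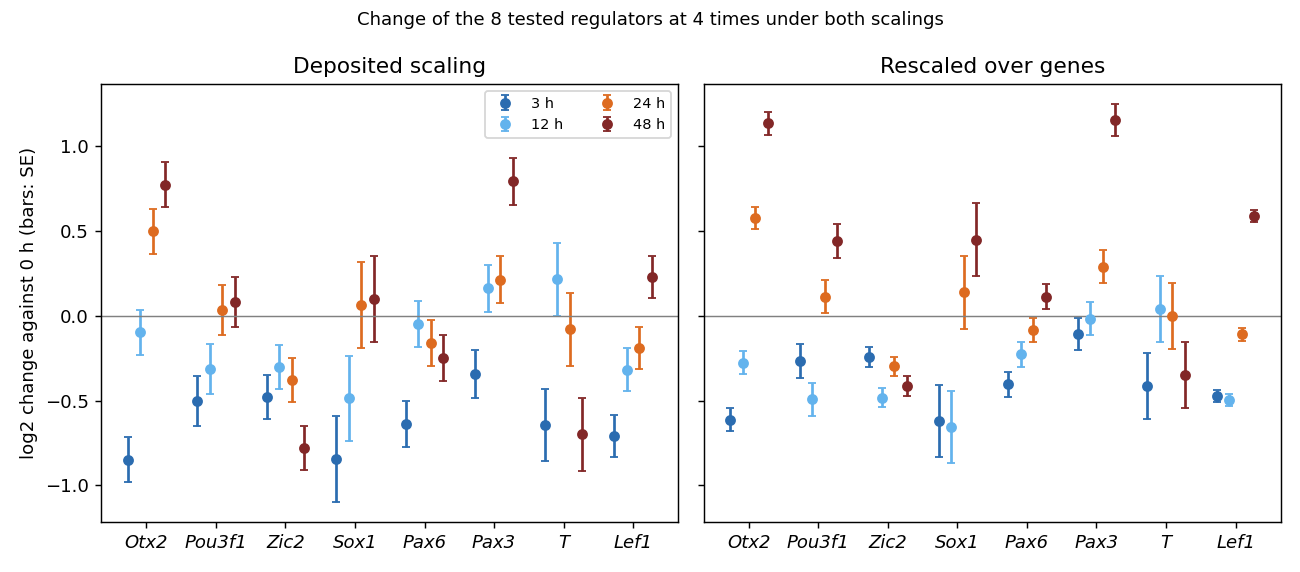
Log2 change against 0 h (vertical axis, bars: SE) of the 8 tested genes (horizontal axis) at 3, 12, 24 and 48 h (colours), on the deposited scaling (left) and after rescaling over genes (right). All 8 lie below 0 at 3 h in both panels, and Otx2 and Pax3 are the highest at 48 h, at 0.77 and 0.79 on the left and 1.14 and 1.16 on the right.

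Side by side, all 8 tested members had a lower mean at 3 h than at 0 h under both scalings, and their courses then parted. At 3 h 7 of the 8 tested genes fell and none rose, against 13.5% of all tested genes that fell and 0.636% that rose. Their median change was -0.64, beside -0.24 over all tested genes. Leaving out a single library gave 4 to 6 calls, and the lowest count, 4, came without 0 h repeat 2 and without 3 h repeat 2. After rescaling 4 of the 8 fell (Otx2, Lef1, Pax6 and Zic2) and none rose, against 8.13% and 4.98% of all tested genes, with a median of -0.41 beside 0.00. At 12 h no member passed limma on the deposited scaling, where 12.9% of the tested genes rose and 2.07% fell. At an unadjusted limma p under 0.05 there were 3, all lower, but the share of all tested genes under that looser threshold is not given here. Of the 15261 tested genes edgeR with the same size factors called 2489 and 0 members, edgeR with TMM 4975 and 6 members, and DESeq2 3899 and 4 members. Without 12 h repeat 2 limma called 2 members. After rescaling 6 of 8 were lower at 12 h and none higher, against 14.9% of all tested genes that fell and 15.8% that rose.

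By 24 h Otx2 had risen and Zic2 had fallen, with 7.21% of all tested genes up and 12.2% down. Limma called 3 members without 24 h repeat 2, and 1 member without any other single library of this comparison. After rescaling Otx2 and Pax3 rose and Zic2 and Lef1 fell, while 21.7% of all tested genes rose and 21.8% fell. Lef1 moved by only -0.11 there (limma adjusted p = 0.015). At 48 h Otx2 and Pax3 rose and T and Zic2 fell, when 7.65% of all tested genes rose and 58.4% fell. After rescaling Otx2, Pax3, Lef1 and Pou3f1 rose and Zic2 fell, against 29.8% and 29.0% of all tested genes. The median of the 8 at 48 h was 0.09 beside -0.37 over all genes, and 0.45 beside -0.01 after rescaling. These 4 comparisons share the 0 h libraries, so they are not independent of each other.

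The intervals between neighbouring times set later groups against each other, although the spread in their tests comes from all 15 libraries, those at 0 h included. From 3 to 12 h 5 members rose (Otx2, Pax3, Pax6, T and Lef1) and none fell, in an interval where 72.9% of all tested genes rose and 0.197% fell. After rescaling Otx2 rose and Zic2 fell, by 0.24, against 13.1% and 8.83% of all tested genes. From 12 to 24 h Otx2 rose, when 1.53% of all tested genes rose and 28.7% fell, and without 12 h repeat 1 limma called 3 members. After rescaling 6 rose over that interval (Otx2, Sox1, Pou3f1, Lef1, Pax3 and Zic2) and none fell, against 12.8% and 12.5% of all tested genes. From 24 to 48 h Pax3 and Lef1 rose and T and Zic2 fell, with 2.40% of all tested genes up and 40.6% down, and without 48 h repeat 1 limma called 2 members. After rescaling 5 rose (Lef1, Otx2, Pax3, Pou3f1 and Pax6) and none fell, against 22.0% and 16.7% of all tested genes. The call of Pax6 ended in limma with TMM (adjusted p = 0.053), edgeR with TMM (0.061) and DESeq2 (0.105), which each called 4 members.

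In the authors' deposited table, which calls every unit up, down or unchanged at each time by a rule that the sources used here do not give, all 9 members are listed as unchanged at 3, 12, 24 and 48 h. The same authors' deposited table calls 16 genes up at 3 h and 4 down, against 571 and 1031 at 48 h.

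**Figure D3:**
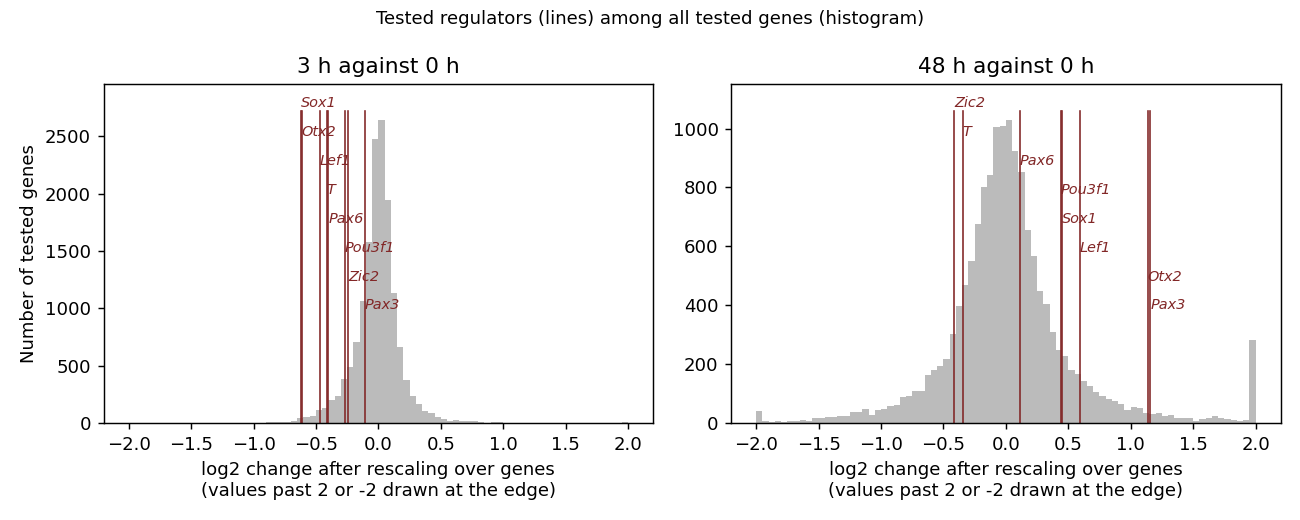
Number of tested genes (vertical axis) by log2 change after rescaling over genes (horizontal axis, values past 2 or -2 drawn at the edge), at 3 h (left) and 48 h (right), with lines at the 8 tested regulators. At 3 h all 8 lines lie left of 0, from -0.62 (Sox1) to -0.11 (Pax3), and at 48 h they run from -0.41 (Zic2) to 1.16 (Pax3).

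Levels can be compared between genes only per length, as scaled reads per kb of unit. At 0 h the order was Zic2 (108 ± 3.77 per kb), Pou3f1 (47.9 ± 5.08), Otx2 (28.5 ± 0.567), Lef1 (17.5 ± 0.858), Pax6 (8.97 ± 0.764), Sox1 (5.79 ± 0.375), T (4.67 ± 0.925), Mixl1 (1.81 ± 0.292) and Pax3 (1.70 ± 0.172). Only the neighbours Mixl1 and Pax3 had overlapping libraries. Per kb, 92.4% of the tested genes lay below Zic2 and 14.9% below Pax3. By 48 h Zic2 was at 63.1 ± 4.21 per kb, and Pou3f1 (50.6 ± 3.55) and Otx2 (48.8 ± 2.35) had overlapping libraries. Pax3 reached 2.94 ± 0.092 per kb at 48 h and overlapped T (2.83 ± 0.561), with 23.2% of the tested genes below it at that time.

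Other genes of the same programmes were counted on 5 lists that hold none of the 9 members, with 14 of their 126 genes on 2 lists. Their counts stand beside those over all tested genes: 13.5% fell and 0.636% rose at 3 h (8.13% and 4.98% after rescaling), and 58.4% fell and 7.65% rose at 48 h (29.0% and 29.8%). Among genes of the formative and primed epiblast, 18 of 22 tested fell at 3 h and 19 of 22 fell at 48 h, with none up at either time. After rescaling 14 fell and 1 rose at 3 h, and 13 fell and 2 rose at 48 h. The list's median was -0.49 at 3 h beside -0.24 over all genes, and -0.58 at 48 h beside -0.37. Fgf5, a growth factor of the formative epiblast, went from 299 ± 17.9 scaled reads at 0 h to 136 at 3 h and 123 ± 7.90 at 48 h, and its 48 h change was -1.27 (limma adjusted p = 1.4e-16). Otx2 and Fgf5 both fell at 3 h, and at 48 h Otx2 had risen and Fgf5 had fallen. Tcf15, a bHLH factor of cells primed for differentiation, changed by -1.28, Etv4, an ETS factor downstream of FGF signalling, by -1.11, and Nodal, the TGF-β family ligand of the epiblast, by -0.74, all past the limma threshold at 48 h. These 4 falls also passed after rescaling, at -0.91 for Fgf5, -0.93 for Tcf15, -0.75 for Etv4 and -0.38 for Nodal.

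Among the neural plate and early ectoderm genes 14 of 23 tested fell and none rose at 3 h, and at 48 h 5 rose and 11 fell. After rescaling the 48 h counts were 10 up and 9 down, and at 3 h 7 down and none up. At 48 h the share of the list that fell was no larger than that of all tested genes on the deposited scaling, and the median was -0.36 beside -0.37 over all genes. Sox2, the SOX factor shared by pluripotent and neural cells, fell by 0.69 on the log2 scale at 48 h, Gbx2, a homeobox factor of the hindbrain border, by 1.17, and Olig2, a bHLH factor of the ventral neural tube, by 0.98. These 3 falls also passed the limma test after rescaling, at -0.33, -0.81 and -0.62. The 5 that rose at 48 h, named after their values were seen, were Msx1 (1.23), Irx3 (0.88), Msx2 (0.85), Lhx2 (0.76) and Nes (0.33), and all 5 rose after rescaling too, by 1.58, 1.21, 1.21, 1.10 and 0.70. Msx1 and Msx2 are homeobox factors of the neural plate border, and Nes encodes the intermediate filament nestin. Irx3 and Lhx2 had few reads, with means of 7.74 and 13.3 scaled reads at 0 h. With a mean of 9.72 at 3 h, Irx3 reached the minimum of 10 only through later times, so the filter favoured its rise.

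Of the genes of the primitive streak, mesoderm and endoderm 10 of 19 tested fell at 3 h and none rose, while at 48 h 2 rose and 13 fell (5 and 10 after rescaling). Their median at 48 h was -0.67 beside -0.37. Fgf17 and Fgf8, ligands of the streak and its derivatives, fell at 48 h by 2.95 and 1.44 on the log2 scale. Fgf17 went from 101 ± 3.00 to 12.1 ± 0.741 scaled reads. Tbx3, a T-box factor also used by naive cells, fell by 0.99, or 0.62 after rescaling. Sp5, a zinc-finger factor induced by WNT, moved the other way, from 51.5 ± 9.62 to 138 ± 12.2 scaled reads, a rise of 1.42 at 48 h (SE 0.17, limma adjusted p = 3.8e-15). The other gene of this list that rose, named after its values were seen, was Snai1, a zinc-finger factor of the epithelial-to-mesenchymal transition, by 0.59, or 0.95 after rescaling.

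The list of WNT and LEF/TCF genes holds relatives, partners and targets of Lef1. Of its 27 tested genes 13 fell at 3 h and none rose, while at 48 h 3 rose and 15 fell, with 11 up and 8 down after rescaling. The share that fell at 48 h was close to that of all tested genes, and the median was -0.33 beside -0.37, and 0.03 beside -0.01 after rescaling. The 3 that rose at 48 h were Sp5 and, named after their values were seen, Nkd1 (0.50, limma adjusted p = 0.00051) and Axin2 (0.30, adjusted p = 0.028), both feedback inhibitors of WNT signalling, which rose by 0.87 and 0.66 after rescaling. Notum, a secreted enzyme that inactivates WNT ligands, fell by 1.69, Ccnd1, the cyclin D1 gene, by 1.38 and Fzd5, a WNT receptor, by 1.24. The last 3 fell after rescaling as well, by 1.34, 1.02 and 0.88. Of the genes named so far, Sp5, Nkd1 and Axin2 thus rose at 48 h, and Notum, Ccnd1 and Fzd5 fell. On the deposited scaling Cdx2 (-0.71), Myc (-0.66), Cdx1 (-0.56) and Lgr5 (-0.54), named after their values were seen, fell too. Among these only Myc also fell after rescaling (-0.30, limma adjusted p = 0.0053). Wnt8a (-0.97), Tle4 (-0.75), Tle3 (-0.70) and Tcf7l1 (-0.50), also named after their values were seen, fell under both scalings. After rescaling their changes were -0.61, -0.39, -0.34 and -0.13. Tle1, Nkd2, Apc and Znrf3, named likewise, fell on the deposited scaling only.

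The naive pluripotency genes mark the state that the epiblast genes follow. Of 20 tested, 10 fell and none rose at 3 h (9 and 1 after rescaling), and 18 fell and 2 rose at 48 h (15 and 2 after rescaling), with a 48 h median of -0.84 beside -0.37. Nr0b1, a nuclear receptor of naive cells, fell by 2.29, Fgf4, the FGF ligand that embryonic stem cells secrete, by 1.75, Tcl1, a co-activator of AKT, by 1.73 and Tfcp2l1, a factor of the naive network, by 1.09, and after rescaling by 1.93, 1.38, 1.38 and 0.73. The 2 that rose, named after their values were seen, were Zfp42 (Rex1), a zinc-finger gene used as a marker of naive cells, and Dppa3, which protects DNA methylation in the early embryo. Zfp42 went from 1602 ± 72.1 to 2898 ± 77.9 scaled reads at 48 h, a rise of 0.86 (limma adjusted p = 6.2e-11) or 1.22 after rescaling, and Dppa3 rose by 0.45 or 0.81.

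Transcription beside the members was followed on units within 50 kb that the choice of members did not use. There were 15 other genes, of which 13 could be tested, and at 3 h 6 of these fell and none rose (4 and none after rescaling), where 13.5% of all tested genes fell. At 48 h 1 rose and 6 fell, against 7.65% and 58.4% of all tested genes, and after rescaling 6 rose and 1 fell, against 29.8% and 29.0%. Of 37 non-coding units 15 were tested. At 3 h 3 of the 15 fell and none rose, against 8.06% and 7.74% of the 15730 non-coding units tested, and after rescaling 2 fell and none rose, against 1.89% and 11.0%. At 48 h 1 rose and 5 fell, against 29.3% and 39.4%, and after rescaling 7 rose and 2 fell, against 35.7% and 22.0%. The 9 repeat copies that overlap members had too few reads to test.

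Otx2os1, a non-coding gene on the opposite strand, starts 1644 bp upstream of the Otx2 unit but inside the GENCODE Otx2 gene. It lies at chr14:48669288-48793348. It had 205 ± 19.4 scaled reads at 0 h, 127 ± 10.8 after 3 h, 384 ± 32.4 at 24 h and 232 ± 14.4 at 48 h. It fell with Otx2 at 3 h, by 0.69 (limma adjusted p = 7.3e-05), and rose with it at 24 h, by 0.91 (adjusted p = 8.2e-10). At 48 h, where Otx2 was highest, Otx2os1 had a change of 0.18 (limma adjusted p = 0.22), or 0.54 (adjusted p = 2.35e-08) after rescaling. A non-coding unit at chr14:48694801-48742201, on the strand of Otx2os1 and inside it, followed the same course, with changes of -0.67 at 3 h (-0.44 after rescaling) and 0.96 at 24 h, and its reads may be those of Otx2os1. Of the units flanking Otx2, chr14:48651601-48657001, 676 bp downstream, went from 38.0 ± 7.82 to 24.9 ± 8.10 scaled reads at 3 h (-0.61, limma adjusted p = 0.049, a call that ended after rescaling, adjusted p = 0.22), and chr14:48693401-48697801 went from 17.5 ± 3.77 to 26.5 ± 2.94 at 24 h (0.59, adjusted p = 0.043).

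Zic5, the neighbour of Zic2 on the opposite strand, lies 9726 bp upstream of it at chr14:122459160-122465658. It had 646 ± 21.5 scaled reads at 0 h, 452 ± 37.5 after 3 h, 528 ± 65.3 at 24 h and 405 ± 4.31 at 48 h. It fell at 3 h by 0.52 (limma adjusted p = 0.0022) and at 48 h by 0.67 (adjusted p = 1.1e-06), and by 0.28 and 0.31 after rescaling, so the pair of Zic genes moved alike in direction at these times. The antisense gene 2610035F20Rik, 185 bp upstream of Zic2, had 22.8 ± 1.52 scaled reads at 0 h and 13.9 ± 3.60 at 48 h, a change of -0.70 (limma adjusted p = 0.012) that became -0.36 (adjusted p = 0.15) after rescaling. The non-coding unit chr14:122470001-122475201, on the same strand and over nearly the same bases, changed by -0.66 at 48 h (limma adjusted p = 0.015), which was -0.32 (adjusted p = 0.21) after rescaling. On the strand of Zic2, the upstream unit chr14:122463801-122471201 went from 147 ± 4.29 to 98.1 ± 7.25 at 48 h (-0.58, limma adjusted p = 0.0004), and its rescaled change was -0.22 (adjusted p = 0.062). Gm5089, 24238 bp upstream, fell at 3 h by 0.68 (0.44 after rescaling) and had a change of -0.29 at 48 h (limma adjusted p = 0.062). In contrast, a non-coding unit 45473 bp downstream of Zic2 at chr14:122525801-122529801 went from 5.54 ± 2.51 to 16.96 ± 1.42 scaled reads at 48 h, a rise of 1.52 (limma adjusted p = 0.00021). Its reads were few, and with means of 5.54 at 0 h and 7.05 at 3 h it reached the minimum of 10 only through later times.

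**Figure D4:**
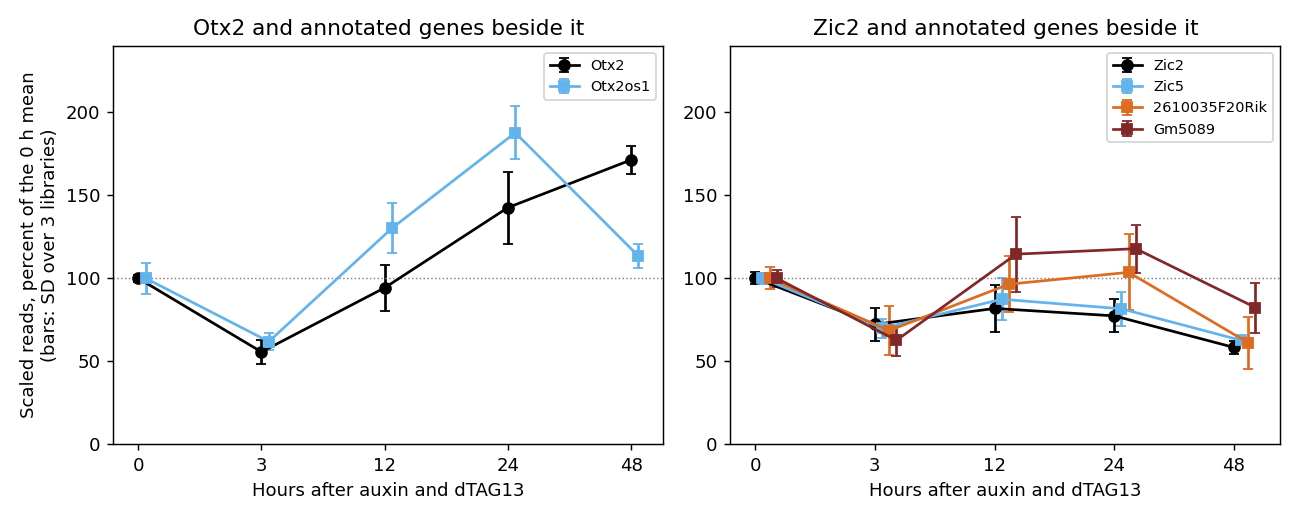
Scaled reads as percent of the 0 h mean of the same gene (vertical axis, from 0, bars: SD over 3 libraries) at the 5 times (horizontal axis, evenly spaced times in hours), for Otx2 and Otx2os1 (left) and for Zic2, Zic5, 2610035F20Rik and Gm5089 (right). Otx2os1 peaks at 24 h with 384 scaled reads while Otx2 is highest at 48 h with 487, and both Zic genes are lowest at 48 h, at 312 and 405.

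At Pou3f1 a non-coding unit at chr4:124629801-124657001 on the opposite strand, 645 bp upstream of the unit used, fell at 3 h from 122 ± 10.2 to 66.8 ± 8.23 scaled reads, a change of -0.86 (limma adjusted p = 5.9e-05) and -0.63 after rescaling. GENCODE starts Pou3f1 at base 124656807, so this non-coding unit reaches into the gene. A downstream unit at chr4:124669601-124670201 fell by 0.62 at 12 h and by 0.91 at 48 h (limma adjusted p = 1.3e-05; 0.55 after rescaling), when Pou3f1 itself did not pass on this scaling. Fhl3, 40044 bp downstream, fell by 0.59 at 3 h and rose by 0.37 at 48 h (0.35 and 0.73 after rescaling), and UTP11L fell by 0.38 at 48 h on the deposited scaling only. At Sox1 the downstream unit chr8:12439401-12445401 went from 36.5 ± 7.38 to 14.1 ± 4.44 scaled reads at 48 h, a fall of 1.34 (limma adjusted p = 1.9e-05), or 1.00 after rescaling. Near T the gene T2, which starts upstream on the same strand, went from 67.2 ± 4.21 to 45.3 ± 2.27 at 3 h, a fall of 0.56 (limma adjusted p = 0.022) that was -0.33 (adjusted p = 0.12) after rescaling. Beside Lef1, Hadh, 9063 bp downstream on the opposite strand, had a change of -0.15 at 3 h (limma adjusted p = 0.33), where Lef1 had fallen by 0.71, and rose by 0.44 at 24 h. The genes flanking Mixl1, Lin9 and Acbd3, had changes of -0.25 and -0.19 at 3 h, neither past the limma threshold. The unit chr1:180650801-180651201 beside Mixl1 went from 24.3 ± 5.75 to 13.4 ± 5.84 scaled reads at 48 h (-0.86, limma adjusted p = 0.0069), or -0.52 (adjusted p = 0.13) after rescaling.

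The genes whose rescaled log2 values followed a member most closely over the 15 libraries are given as a description, since these libraries share their times and their scaling. For Otx2 they were Axin2, a feedback inhibitor of WNT signalling (r = 0.986), and Tnfrsf19, a receptor of the TNF family (r = 0.984). For Lef1 they were Zswim6 (r = 0.980) and Dusp6, a phosphatase that restrains ERK (r = 0.978), and for Pax3 Grb2, an adaptor of receptor kinases (r = 0.984), and Map4k5 (r = 0.981). Pou3f1 was followed by Pkd1l2 (r = 0.961) and Kitl, the ligand of KIT (r = 0.947), Pax6 by Epha2, an ephrin receptor (r = 0.947), and B4galt1 (r = 0.927), and Sox1 by Lgals9 (r = 0.942) and Lif (r = 0.926). Zic2 was closest to Mdrl (r = 0.917) and Mapkapk3 (r = 0.903). T had the weakest likeness, with Scd4 (r = 0.788) and Fancg (r = 0.760), and its reads were few.

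Marker genes of other cell types were read in the same libraries, and their part in the members' changes was not tested. The 10 embryonic stem cell markers summed to 20153 to 22039 scaled reads at 0 h and 14235 to 15028 at 48 h, with 1 up and 9 down at 48 h (1 and 7 after rescaling). Defining markers of the labelled cell type were thus read in every library. The 10 markers of 2-cell-like cells summed to 42.4 to 48.9 at 0 h and 1483 to 1751 at 48 h, and all 6 that could be tested rose at 48 h under both scalings. However, 8 of the 10 had a mean under 10 scaled reads at 0 h, and the minimum for testing is a mean over all libraries. Zscan4c, Zfp352, Usp17la and Gm8300 could be tested only through their later values, so the filter largely fixed that count. Neural progenitor markers went from 1261 to 1380 at 0 h to 902 to 1014 at 3 h and 989.6 to 1111 at 48 h, with 3 of 4 tested down and 1 up at 48 h (2 and 1 after rescaling). Primitive endoderm markers summed to 2454 to 2827 at 0 h and 2345 to 2542 at 48 h, with 1 of 8 tested up and 3 down (4 and 3 after rescaling). Trophectoderm markers summed to 1713 to 1766 at 0 h and 1861 to 2139.7 at 48 h, with 3 up and 3 down of 8 (5 and 1 after rescaling). Fibroblast markers summed to 1462 to 1709 at 0 h and 1349 to 1523 at 48 h, and of 9 tested 6 rose and 2 fell under both scalings. Within that sum Fbln1 alone went from a mean of 1176 to 852. Lum and Dcn, with means of 3.89 and 9.78 at 0 h, reached the minimum of 10 only through later times, so the filter favoured a rise. Beside these lists, 7.65% of all tested genes rose and 58.4% fell at 48 h (29.8% and 29.0% after rescaling). No marker of any of the 6 lists was at 0 in every library.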

How the data were processed

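TT-seq of 15 libraries (5 times, 3 biological repeats each) was analysed; per the labels each library was sequenced in 2 runs, so GEO lists 30 samples, and a library counts as 1 replicate. Per the labels' protocols, the 4-thiouridine pulse was 10 minutes at 1 mM, and each 110 µg of total RNA received 1 µg of yeast spike-in RNA. Per the submitters' processing notes STAR 2.5.2a, DESeq2 and deepTools were used with mm10 (GRCm38). The sources used here give no counter, strand setting or annotation. The deposited signal is reads per transcription unit divided by 1 size factor per library: at least 99.997% of nonzero values in each library were whole multiples of its smallest step (0.636 to 0.936) within a tolerance of 0.05, so whole reads were recovered as steps. The files do not show if these factors come from the spike-in.

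Genes with a mean of at least 10 scaled reads were tested (15261 of 20541) with limma 3.58.1 (R 4.3.3, intensity trend) on log2(value + 1), two-sided, all 15 libraries in 1 fit, adjusted over all tested genes (15730 non-coding units likewise); the pseudocount of 1 understates changes of low genes. Alternatives were rescaling over genes, TMM, pseudocounts of 0.5 and 5, other filters, no trend, only the groups compared, a replicate block, each library left out, and edgeR 4.0.16 and DESeq2 1.42.0 on recovered reads. limma and edgeR were tested on simulated data. The members and all gene lists were chosen with earlier results of these data known. Named genes are the members, the 4 genes of each list with the smallest limma adjusted p at 48 h, the targeted genes, the 2 genes most like each tested member by Pearson's r over the libraries, and non-coding units within 50 kb that passed the test at any time; annotated genes in that window were named after their values were seen. Not every gene that this rule takes in is reported here. Promoter sequence came from RefSeq tables and gene structure from GENCODE M21. Repeats of a time carry no statement that their numbers mark a shared batch. Counting error limits genes with few reads.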

Additional observations from a re-analysis of the deposited data

How the results depend on the processing

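The number of tested genes called at 3 h was 2150 as reported, 6119 with only the groups compared in the fit, 1263 without the trend and 3230 with the replicate block. At 12 h it was 2288, and 4677 after rescaling over genes, 4709 with TMM, 4975 by edgeR with TMM and 3899 by DESeq2. At 24 h the same settings moved it from 2960 to 6638, 6654, 6644 and 5651, and from 3 to 12 h from 11156 to 3344, 3396, 3658 and 2665. From 12 to 24 h it was 4610, with 547 when only the groups compared were fitted, 2182 without the trend and 3011 by DESeq2. On recovered reads with the deposited size factors edgeR called 2280, 2489, 2886 and 10047 genes at the 4 times. Leaving out 1 library gave 470 to 2993 genes at 3 h, 1194 to 5547 at 12 h, 2156 to 4938 at 24 h, 8117 to 9323 at 48 h, 7657 to 12341 from 3 to 12 h, 847 to 9586 from 12 to 24 h and 3224 to 7277 from 24 to 48 h. The lowest of these came without 0 h repeat 2 (470, 2156 and 8117), 12 h repeat 2 (1194, 7657 and 847) and 48 h repeat 1 (3224), and the cause was not tested.

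Of the 8 tested members, those called numbered 4 at 3 h, 4 at 24 h and 2 from 3 to 12 h after rescaling, with TMM, by edgeR with TMM and by DESeq2. At 12 h they numbered 6 after rescaling, with TMM and by edgeR with TMM, 4 by DESeq2, and 1 without the trend or with the block. At 24 h 1 was called without the trend. From 12 to 24 h they numbered 6 after rescaling, with TMM and by edgeR with TMM, 5 by DESeq2, and 2 without the trend, with the block or by edgeR with the deposited size factors. Leaving out 1 library gave 4 to 6 members at 3 h, 0 to 2 at 12 h, 1 to 3 at 24 h, 4 to 4 at 48 h, 5 to 6 from 3 to 12 h, 1 to 3 from 12 to 24 h and 2 to 4 from 24 to 48 h.

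The sign turned with the scaling for some members; the values follow for rescaling, TMM, edgeR with TMM and DESeq2 in that order. Pax3 at 12 h was -0.0165, -0.0152, -0.0169 and -0.0176. Pax6 was 0.113, 0.0994, 0.0988 and 0.112 at 48 h, 0.143, 0.146, 0.141 and 0.14 from 12 to 24 h, and 0.196, 0.178, 0.175 and 0.194 from 24 to 48 h. Zic2 from 12 to 24 h was 0.184, 0.186, 0.182 and 0.18. From 3 to 12 h Pou3f1 was -0.225, -0.223, -0.228 and -0.229, Sox1 -0.0355, -0.0336, -0.079 and -0.0782, Zic2 -0.241, -0.239, -0.238 and -0.24, and Lef1 -0.0256, -0.0235, -0.0238 and -0.0258. With TMM T at 24 h was 0.00205.

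Libraries were left out on the deposited scaling only, and there leaving out 1 library turned the sign only of changes not called on that scaling. The ranges were -0.173 to 0.0323 for Otx2 and -0.184 to 0.106 for Pax6 at 12 h, and -0.172 to 0.169 for Pou3f1 and -0.248 to 0.054 for T at 24 h. At 48 h they were -0.0045 to 0.147 for Pou3f1 and -0.0289 to 0.211 for Sox1. From 12 to 24 h they were -0.0241 to 0.114 for Pax3, -0.267 to 0.0236 for Pax6 and -0.193 to 0.0523 for Zic2. From 24 to 48 h they were -0.189 to 0.0334 for Pax6, -0.0892 to 0.252 for Pou3f1 and -0.0922 to 0.147 for Sox1. Some of these changes were called after rescaling, where no library was left out. They were Otx2 and Pax6 at 12 h, Pou3f1 at 48 h, Pax3 and Zic2 from 12 to 24 h, and Pax6 and Pou3f1 from 24 to 48 h.

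Likeness by replicate number was weak: deviations of same-numbered libraries correlated at -0.04 to 0.08, and 0 of 30 pairs passed 0.1. The median was 0.0096 for the same number and -0.0029 for other numbers, and 10 of 15 libraries correlated best with their own number. With the replicate block the members called against 0 h numbered 8, 1, 2 and 4 at the later times in turn. Where no test passed, few reads are a limit: Mixl1 had 2 to 13 a library and Sox1 13 to 39.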
